A study of Mus musculus with 25 samples.

Results

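The transcripts of 10 nuclear receptors were followed by RNA sequencing in mouse macrophages. They were chosen by gene symbol from the 24411 symbols of the count tables and comprise the fatty acid receptors Pparg and Ppard, the oxysterol receptors Nr1h2 (LXRβ) and Nr1h3 (LXRα), their partner Rxra, the glucocorticoid receptor Nr3c1, the orphan receptors Nr4a1, Nr4a2 and Nr4a3, and the vitamin D receptor Vdr. The other 39 genes of the mouse superfamily served as a comparison. All 10 symbols had counts, although Nr4a2 had at most 6 counts in any of the 25 samples.

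Bone marrow-derived macrophages (BMDMs) came from C57BL/6 mice and were grown for 4 days with 25 ng/ml macrophage colony-stimulating factor (M-CSF). Of the 21 BMDM samples, 3 were untreated controls cultured for 4 h, and 3 each had received 100 U/ml IFN-γ with 100 ng/ml LPS for 1, 4, 12 or 24 h (IFN-γ-primed LPS in the study's wording), 10 ng/ml IL-4 for 12 h, or 10 ng/ml IL-13 for 12 h. The labels give 1 time for IFN-γ and LPS together. The other 4 samples were RAW264.7 cells, a macrophage line from a mouse tumour, with 2 controls cultured for 4 h and 2 samples given 100 ng/ml LPS for 4 h. Per the study, the line derives from Balb/c mice infected with Abelson murine leukemia virus. It was grown in RPMI medium, and the BMDMs in DMEM. All BMDM comparisons used the same 3 controls, whose culture time matched only the 4 h samples. The study calls the samples of these BMDM groups biological triplicates of independent RNA. Neither the study nor the labels say that samples of a group came from separate mice or cultures. The p-values therefore measure the spread between these samples.

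Nuclear receptors are transcription factors that small lipophilic molecules switch on. PPARs, LXRs and the vitamin D receptor bind DNA as heterodimers with an RXR, whereas the glucocorticoid receptor binds largely as a homodimer and the NR4A proteins are induced as immediate-early genes and need no known ligand. In macrophages PPARs govern fatty acid uptake and oxidation, LXRs govern cholesterol efflux, and the glucocorticoid receptor carries the anti-inflammatory action of corticosteroids.

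Sense-strand counts per sample ran from 2378639 to 3357300 (median 2718848). The ribosomal precursor Rn45s took 20.1% to 39.8% of them and was left out, which left 1502618 to 2532496. Levels are CPM, the counts scaled to a common library total without Rn45s, with TMM factors over all 25 samples. A gene was called higher or lower at an adjusted p of at most 0.01 in edgeR's quasi-likelihood test. All 8 macrophage markers were detected in every BMDM group, and in RAW264.7 all but Mertk. Markers of T cells and of erythroid cells were at 0 in all 25 samples, those of B cells summed to at most 0.577 CPM and those of adipocytes to at most 0.575 CPM. Of 8 neutrophil markers in the files, 5 were detected in control BMDMs, where they summed to 13.6 to 23.5 CPM, and the sum was 32.2 to 43.5 CPM at 1 h, 37.3 to 51.7 CPM at 4 h and 21.9 to 24.0 CPM at 24 h, with Retnlg at 0 throughout. Stromal markers summed to 26.6 to 58.5 CPM in BMDMs and were at 0 in RAW264.7. The part of either list in the results was not tested. The antisense share of Rn45s reads separated the libraries, at 0.0386% to 0.122% in the 12 of control, 1 h, 4 h and 12 h and at 0.00603% to 0.0214% in the 9 of 24 h, IL-4 and IL-13. What set the 9 libraries apart cannot be told apart from those 3 treatments. In the 4 RAW264.7 libraries the share was 0.0199% to 0.0283%.

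In control BMDMs, Rxra, Nr1h2 and Nr1h3 were the most abundant of the 10 transcripts per length. On the scale of mean CPM per kb of merged exons, Rxra stood at 34.8, Nr1h2 at 32.0 and Nr1h3 at 29.9. Nr3c1 followed at 18.5 and Pparg at 11.8. Ppard and Nr4a1 were about an order of magnitude lower, at 1.50 and 1.48, Vdr was at 0.317, and Nr4a2 at 0.0884. Nr4a3 had no count in any control. By 24 h of IFN-γ-primed LPS the order had changed, with Nr1h3 at 217, Nr1h2 at 35.9, Nr3c1 at 22.6, Rxra at 14.2 and Pparg at 0.683 CPM per kb.

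**Figure D1:**
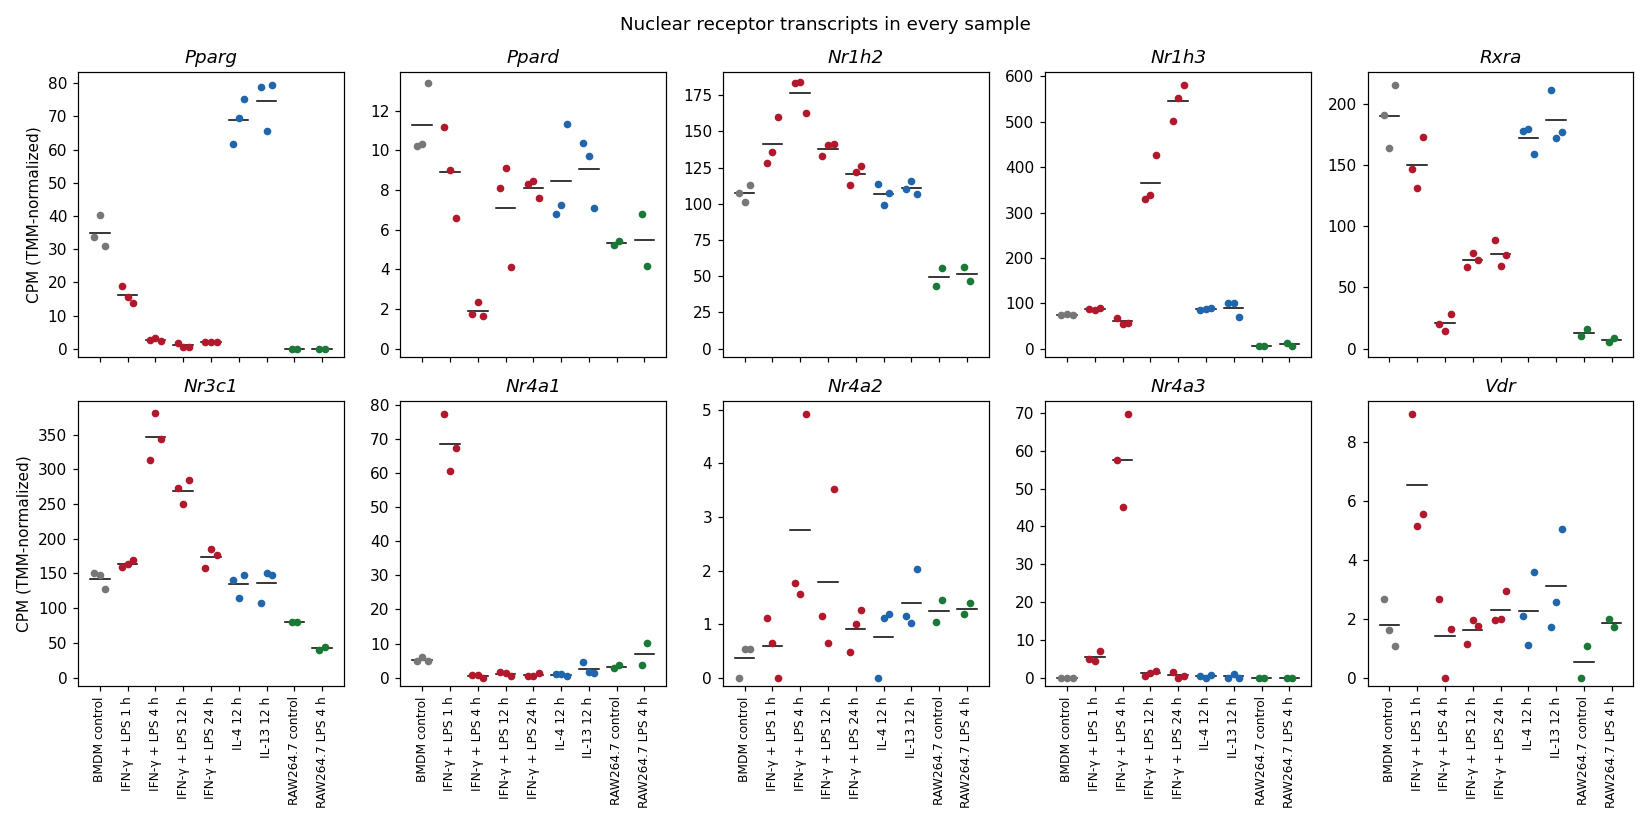
Level of each of the 10 nuclear receptor transcripts in every sample, in TMM-normalized CPM on a linear axis from 0 that differs between panels. Points are samples, 3 for each BMDM group and 2 for each RAW264.7 group, and bars are group means. Nr1h3 is highest at 12 and 24 h, Pparg with IL-4 and IL-13, Nr4a1 at 1 h and Nr4a3 at 4 h.

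IFN-γ-primed LPS moved between 4 and 7 of the 8 members that could be tested, depending on the time. At 1 h, 4 of the 8 members tested were called, 3 higher and 1 lower, where 26% of all genes tested were called (14.7% higher, 11.3% lower). At 4 h it was 7 of 8 (3 higher, 4 lower) against a background of 51.5% (26% higher, 25.6% lower). At 12 h, 5 of 8 were called (2 higher, 3 lower) against 47.3% (23.9% higher, 23.4% lower), and at 24 h, 4 of 8 (1 higher, 3 lower) against 45.2% (23.9% higher, 21.3% lower). Between successive times, 7 of 8 were called from 1 to 4 h (background 38.9%), 6 of 8 from 4 to 12 h (35.9%) and 2 of 8 from 12 to 24 h (14.2%). These shares lay above or near the background, which was itself high. From 4 to 12 h the main test gave 3 higher and 3 lower, DESeq2 gave 2 and 2, and scaling by library size alone gave 3 and 1. With a log2 change of at least 1 required as well, none of the 8 was called from 12 to 24 h, where the background was 3.8%. Nr4a2 and Vdr did not pass the filter on low counts in the time course and had no test there. How genes split between higher and lower calls depended on the scaling. With TMM, 50.4% of all calls at 4 h were higher, and with scaling by library size alone 24.3% were, since that scaling put the median gene at -0.61 against -0.07 with TMM on the log2 scale. The shift was -0.22 at 1 h, -0.34 at 12 h and -0.20 at 24 h, so changes of that size or smaller depend on what is held constant.

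**Figure D2:**
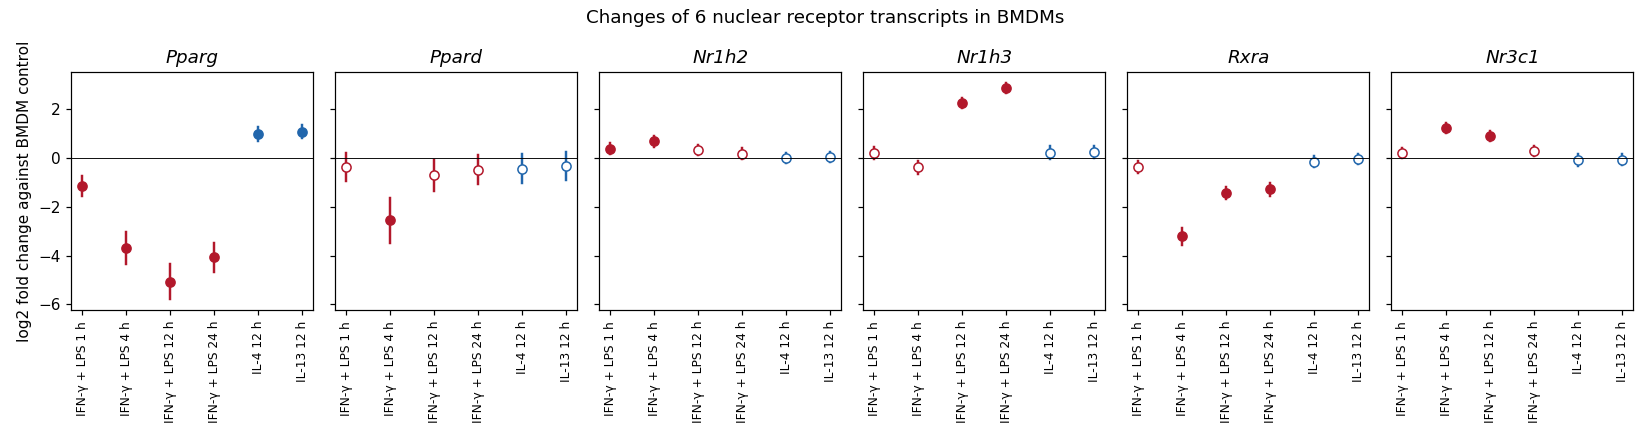
Log2 fold change against control BMDMs of the 6 members tested in all 6 comparisons, with 95% confidence intervals from the edgeR fits. Filled points passed an adjusted p of 0.01 and open points did not, with IFN-γ-primed LPS in red and IL-4 and IL-13 in blue. Pparg fell with IFN-γ-primed LPS and rose with both cytokines, and Nr1h3 rose at 12 and 24 h.

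Pparg, the receptor for polyunsaturated fatty acids and thiazolidinediones, moved in opposite directions under IFN-γ-primed LPS and under the cytokines. Its gene lies at chr6:115360951-115490399 on the plus strand (mm10, GENCODE M21). Its level was 33.8, 40.1 and 31.0 CPM in the 3 controls. It was 19.0, 15.4 and 13.7 CPM at 1 h, 2.66, 3.11 and 2.46 CPM at 4 h, 1.73, 0.650 and 0.589 CPM at 12 h, and 1.96, 1.99 and 2.11 CPM at 24 h. Every treated sample lay below every control. On the log2 scale Pparg fell by 1.16 (SE 0.20, adjusted p = 5.6e-06) at 1 h, by 3.69 (SE 0.32) at 4 h, by 5.07 (SE 0.36) at 12 h and by 4.07 (SE 0.29) at 24 h. The levels from 4 to 24 h rest on 1 to 5 counts a sample, and the differences between 4 and 12 h (-1.38, adjusted p = 0.11) and between 12 and 24 h (1.00, adjusted p = 0.33) did not pass the test.

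With IL-4 the level of Pparg was 61.8, 69.5 and 75.1 CPM, and with IL-13 it was 78.8, 65.5 and 79.4 CPM. All 6 samples lay above the controls, and the cytokine groups overlapped each other. The rise was 1.94-fold with IL-4 (log2 0.96, SE 0.14, adjusted p = 1.1e-06) and 2.10-fold with IL-13 (log2 1.07, SE 0.14, adjusted p = 3.7e-08). Pparg was the only member called in either comparison, 1 of 6 tested each time, where the background was 7.63% with IL-4 and 10.1% with IL-13. With a log2 change of at least 1 required as well, its call with IL-4 was lost, where the background was 1.98%.

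Ppard, the second PPAR of macrophages, stayed low and had a single trough. Its gene lies at chr17:28232700-28301474 on the plus strand. Its level was 10.2, 10.3 and 13.4 CPM in controls and 1.77, 2.33 and 1.64 CPM at 4 h, with no overlap. That difference was -2.56 on the log2 scale (SE 0.46, adjusted p = 4.6e-06). The 4 h level rests on 2 to 3 counts a sample, 7 in all. At 12 h the samples held 8.08, 9.10 and 4.12 CPM, and the rise from 4 h was 1.84 (SE 0.52, adjusted p = 0.0029). This rise did not pass with DESeq2 or when either of the 4 h samples 1 and 3 or the 12 h samples 1 and 2 was left out (adjusted p up to 0.018). Against control, Ppard did not pass at 1, 12 or 24 h or with either cytokine, except at 12 h under library-size scaling (-1.03 against -0.72, adjusted p = 0.0043).

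Genes that PPARs are known to drive fell alongside. The list held 14 genes, of which 13 could be tested. At 1 h 1 was higher and 5 lower, at 4 h 1 and 10, at 12 h 1 and 10, and at 24 h 0 and 11, where 11.3%, 25.6%, 23.4% and 21.3% of all genes were lower. Library-size scaling gave 1 higher and 9 lower at 1 h. The median change at 24 h was -1.40 on the log2 scale, beside 0.02 over all genes. Lpl, the lipase that frees fatty acids from lipoproteins, had 1774 ± 240 CPM in controls (SD, n = 3) and fell by 1.53 at 4 h (SE 0.10) and by 3.15 at 24 h (SE 0.10). Angptl4, a lipase inhibitor, fell by 2.39 at 4 h (SE 0.30), and Pdk4, a kinase that turns fuel use towards fatty acids, fell by 2.85 (SE 0.47). The gene higher at 4 h was Tgm2, which codes for transglutaminase and is also known as a retinoid target. Tgm2 had a mean of 302 CPM in controls, 1817 CPM at 1 h and 169 CPM at 24 h, where it was lower by 0.85 (SE 0.10).

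With IL-4, 1 of the 13 PPAR targets was higher and 0 lower, where 7.63% of all genes were called, and 5 had an unadjusted p under 0.05. With IL-13, 3 were higher and 1 lower, where 10.1% of all genes were called. Cd36, the fatty acid scavenger receptor, rose from 1146 ± 52.4 to 1602 ± 116 CPM with IL-4 (log2 0.47, SE 0.08) and to 1708 ± 111 CPM with IL-13 (log2 0.56, SE 0.08). Pdk4 was lower with IL-13 by 1.13 (SE 0.29, adjusted p = 0.0036). In DESeq2 2 of the 13 were higher with IL-13 and 0 lower.

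Nr1h3 showed the largest rise among the members called at 12 and 24 h. Only Nr4a3, with at most 3 counts a sample then and none in controls, had a larger fitted rise, and it was not called. The Nr1h3 gene, at chr2:91184061-91202834 on the minus strand, overlaps the annotated genes Gm13783 and Gm23390. Its level was 74.6, 77.0 and 74.3 CPM in controls, 87.9, 85.6 and 89.5 CPM at 1 h, and 68.2, 55.2 and 56.6 CPM at 4 h. It then reached 331, 339 and 427 CPM at 12 h and 501, 553 and 581 CPM at 24 h, far above every earlier sample. Against control the log2 change was 2.23 at 12 h (SE 0.11, adjusted p = 3.0e-23) and 2.85 at 24 h (SE 0.11, adjusted p = 1.0e-27), or 4.69-fold and 7.21-fold. The step from 12 to 24 h passed the test as well, at 0.62 (SE 0.09, adjusted p = 8.9e-07). At 4 h Nr1h3 lay below the controls in all 3 samples, yet the difference of -0.39 just missed the threshold (adjusted p = 0.012). Scaled by library size alone it was -0.92 and passed (adjusted p = 4.5e-08), and it also passed without the 4 h sample 1 (-0.47) or the 12 h sample 3 (-0.38). Of the monocyte markers, Ly6c2 had a mean of 0.360 CPM in controls, 18.2 CPM at 4 h, 133 CPM at 12 h and 247 CPM at 24 h, so that it was high where Nr1h3 was high but also above control at 4 h. Ccr2 went the other way, with 3.23 CPM in controls, 0.791 CPM at 4 h, 2.40 CPM at 12 h and 0.281 CPM at 24 h. The summed level of both markers ran from 2.67 to 4.34 CPM in controls and from 227 to 273 CPM at 24 h. Their part in the result was not tested. In bulk samples fewer cells of a type and less RNA per cell cannot be told apart.

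Nr1h2, which codes for the widely expressed LXRβ, varied far less. Its gene lies at chr7:44549616-44553951 on the minus strand. It had 107, 101 and 113 CPM in controls, 128, 136 and 160 CPM at 1 h, 183, 184 and 162 CPM at 4 h, 133, 140 and 141 CPM at 12 h, and 113, 122 and 126 CPM at 24 h. The 4 h samples lay above all controls, with a log2 change of 0.66 (SE 0.11, adjusted p = 1.1e-06). Scaled by library size alone this change was 0.13 and did not pass (adjusted p = 0.27), with the median gene at -0.61. At 1 h the change was 0.37 (SE 0.11, adjusted p = 0.0055). That call was lost with DESeq2, with library-size scaling (0.18), and without control sample 1, control sample 2 or the 1 h sample 3 (adjusted p up to 0.067). The fall of Nr1h2 from 4 to 12 h was called too, at -0.35 (adjusted p = 0.0077). It did not pass with DESeq2, without the filter, with library-size scaling, or in 5 of the 15 fits that left out 1 sample. Per length, Nr1h2 stood above Nr1h3 at 4 h, with 52.7 against 23.9 CPM per kb, and below it at 12 h, with 41.2 against 145 CPM per kb.

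LXR target genes did not rise with Nr1h3. The list held 13 genes, 12 of them tested. At 1 h 3 were higher and 3 lower, at 4 h 3 and 4, at 12 h 2 and 7, and at 24 h 1 and 9, where 11.3%, 25.6%, 23.4% and 21.3% of all genes were lower. Library-size scaling gave 1 higher and 6 lower at 4 h and 1 and 10 at 12 h, and DESeq2 gave 2 and 5 at 12 h. Their median at 24 h was -1.38 on the log2 scale, beside 0.02 over all genes. The gene higher at 24 h was Abca1, the transporter that loads cholesterol onto apolipoprotein A-I, with 325 ± 31.7 CPM in controls and 574 ± 31.2 CPM at 24 h (log2 0.82, SE 0.10, adjusted p = 1.4e-09). Abcg1, the transporter that passes cholesterol to HDL, went the other way. It had 105 ± 18.6 CPM in controls and 13.6 ± 5.13 CPM at 4 h, a fall by 3.01 (SE 0.20), and was still lower by 1.97 at 24 h (SE 0.16). Arl4c, a small GTPase, fell by 1.76 at 4 h (SE 0.16) and by 3.80 at 24 h (SE 0.18), and Scd2, a fatty acid desaturase, fell by 1.57 at 4 h (SE 0.20).

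IL-4 and IL-13 moved Abca1 and Abcg1 in opposite directions too, with the directions exchanged. Abca1 was at 152 ± 35.5 CPM with IL-4, a fall by 1.10 (SE 0.11), and at 168 ± 17.8 CPM with IL-13, a fall by 0.97 (SE 0.11). Abcg1 rose by 0.58 with IL-4 (SE 0.12, adjusted p = 0.00017) and by 0.71 with IL-13 (SE 0.11, adjusted p = 2.4e-06), to 175 ± 25.5 CPM. Of the 12 LXR targets, 2 were higher and 3 lower with IL-4 (2 and 1 in DESeq2), and 2 and 2 with IL-13, where 7.63% and 10.1% of all genes were called. Nr1h3 itself was at 85.3, 87.8 and 90.6 CPM with IL-4 (log2 0.21, 95% interval -0.04 to 0.46) and at 101, 99.7 and 70.3 CPM with IL-13 (log2 0.24, interval -0.01 to 0.49), and neither passed the test.

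A list of enzymes that make or clear receptor ligands was followed too. It held 15 genes, and 6 were tested in the time course. At 4 h 1 was higher and 4 lower, and the counts were the same at 12 h and at 24 h. Of all genes 26%, 23.9% and 23.9% were higher at these times, and 25.6%, 23.4% and 21.3% were lower. Ch25h, which makes the LXR ligand 25-hydroxycholesterol, rose from 0.717 ± 0.309 CPM to 93.4 ± 17.4 CPM at 4 h. From its 4 control counts and 337 counts at 4 h the ratio was 129, with an interval from counting error alone of 50.0 to 477. It was at 34.2 CPM at 24 h. Dhrs3, a retinaldehyde reductase, went from 302 ± 17.7 CPM to 43.9 ± 3.79 CPM at 4 h (log2 -2.84, SE 0.12) and to 20.3 CPM at 12 h. Dhrs9, a retinol dehydrogenase, fell by 3.24 at 4 h (SE 0.58). Both enzymes rose with the cytokines, where 4 of the 15 genes were tested. With each cytokine 2 of the 4 were higher and 1 lower, where 7.63% of all genes were called with IL-4 and 10.1% with IL-13. Dhrs3 reached 584 ± 53.0 CPM with IL-4 (log2 0.94, SE 0.08) and 641 ± 10.8 CPM with IL-13 (log2 1.06, SE 0.08). Dhrs9 was higher by 1.26 (SE 0.22) and 1.33 (SE 0.22). Hpgds, which makes prostaglandin D2, fell by 0.70 with IL-4 (SE 0.11) and by 0.65 with IL-13 (SE 0.11).

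**Figure D3:**
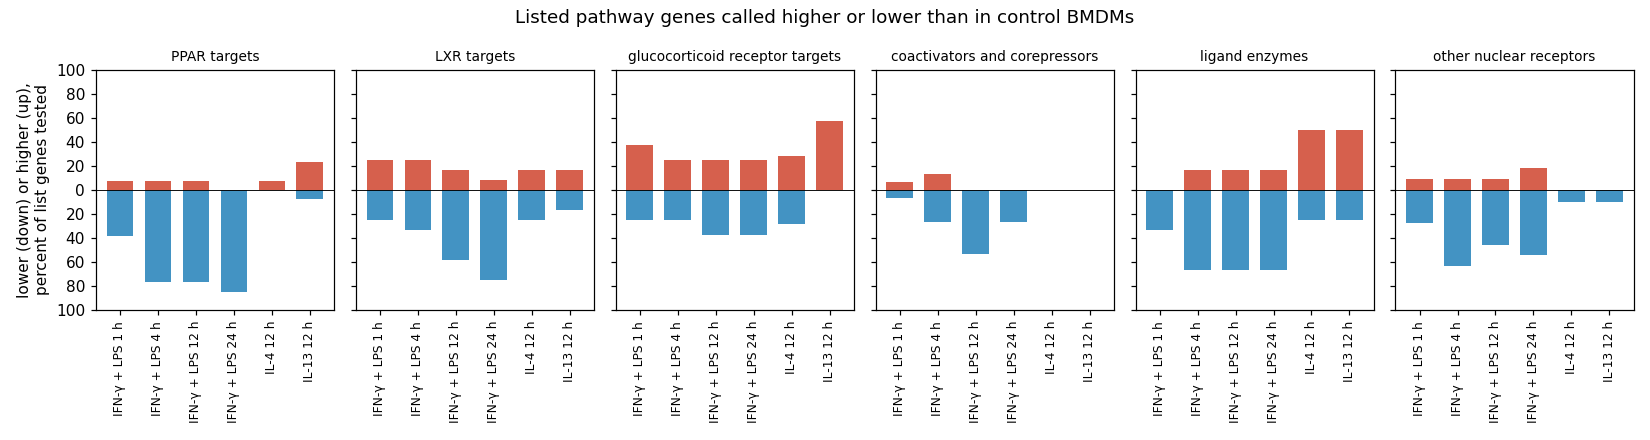
Share of the tested genes of each list that were called higher (upward bars) or lower (downward bars) than in control BMDMs, in percent of the list genes tested. At 24 h 11 of 13 PPAR targets and 9 of 12 LXR targets were lower, where 21.3% of all genes were. No coactivator or corepressor was called with IL-4 or IL-13, where 7.63% and 10.1% of all genes were.

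Rxra, the shared partner of PPARs, LXRs and the vitamin D receptor, fell sharply and came back in part. Its gene lies at chr2:27676440-27762957 on the plus strand. It had 191, 164 and 215 CPM in controls and 147, 131 and 172 CPM at 1 h, where the groups overlapped and the change of -0.37 did not pass (adjusted p = 0.013). It passed under library-size scaling (-0.56), in a fit of these 2 groups only (-0.35), and without control sample 2 (-0.46), the 1 h sample 3 (-0.46), the 12 h sample 3 or the 24 h sample 1 (both -0.36). At 4 h the samples held 20.4, 14.8 and 28.7 CPM, below all others of the course. The change was -3.22 (SE 0.17, adjusted p = 4.2e-21), a 9.30-fold lower level. By 12 h the level was 66.4, 78.0 and 72.4 CPM, higher than at 4 h by 1.77 (SE 0.20, adjusted p = 2.1e-10), and at 24 h it was 88.5, 67.6 and 76.7 CPM. Rxra was still lower than in controls at 12 h by 1.44 (SE 0.13) and at 24 h by 1.30 (SE 0.13). With IL-4 (178, 179 and 159 CPM) and IL-13 (211, 172 and 177 CPM) its samples overlapped the controls.

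Of the 17 coactivators and corepressors that nuclear receptors recruit, 15 were tested in the time course. At 4 h 2 were higher and 4 lower, at 12 h 0 and 8, and at 24 h 0 and 4. Of all genes 26%, 23.9% and 23.9% were higher at these times, and 25.6%, 23.4% and 21.3% were lower. The share lower at 4 h was near that of all genes. Under library-size scaling 0 were higher and 9 lower at 4 h. The coactivator Ncoa2 had 49.2 ± 6.77 CPM in controls and fell by 1.32 at 4 h (SE 0.21), and Tbl1xr1, a subunit of corepressor complexes, fell by 1.26 (SE 0.14). With IL-4 none of the 16 tested was called by edgeR or DESeq2, where edgeR called 7.63% of all genes. Of the 16, 8 had an unadjusted p under 0.05. With IL-13 none was called by either tool either, where edgeR called 10.1% of all genes. Of the 16, 6 had an unadjusted p under 0.05.

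Nr3c1, the glucocorticoid receptor, rose at 4 h and returned towards its starting level by 24 h. Its level was 150, 148 and 128 CPM in controls, 159, 164 and 169 CPM at 1 h, 314, 381 and 344 CPM at 4 h, 273, 250 and 285 CPM at 12 h, and 158, 185 and 177 CPM at 24 h. Every sample at 4 and 12 h lay above all controls. The log2 change was 1.23 at 4 h (SE 0.10, adjusted p = 7.8e-15) and 0.88 at 12 h (SE 0.10, adjusted p = 2.4e-10). At 24 h it was 0.29 and did not pass (adjusted p = 0.016), although it did without the 24 h sample 1 (0.35) or the 12 h sample 3 (0.30), and the fall from 12 to 24 h did, at -0.59 (SE 0.10, adjusted p = 6.8e-06). Scaled by library size alone the changes at 4 and 12 h were 0.70 and 0.57, both still called. The fall from 4 to 12 h (-0.35, adjusted p = 0.0025) did not pass under that scaling, at -0.13 (adjusted p = 0.24), nor without the 4 h sample 2 or the 12 h sample 2 (adjusted p up to 0.027). Neither cytokine moved Nr3c1 past the threshold.

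The list of glucocorticoid receptor targets held 9 genes, 8 of them tested in the time course. At 4 h 2 were higher and 2 lower, the shares of all genes being 26% and 25.6%, and under library-size scaling 1 was higher and 4 lower. Tsc22d3 (GILZ), which carries part of the anti-inflammatory action of glucocorticoids, went from 98.6 ± 10.9 CPM to 6.52 ± 2.77 CPM at 4 h (log2 -3.94, SE 0.22) and was lower by 2.97 at 24 h (SE 0.17). The clock gene Per1 fell by 4.21 at 4 h (SE 0.53). Dusp1, a MAP kinase phosphatase that is also an immediate-early gene, had 49.8 CPM in controls, 2358 CPM at 1 h and 126 CPM at 4 h (log2 1.27, SE 0.18). With IL-13, 4 of 7 tested targets were higher and 0 lower, where 10.1% of all genes were called. Klf9 rose by 1.18 (SE 0.22), Fkbp5, a chaperone that dampens the receptor, by 1.13 (SE 0.22), and Errfi1, an inhibitor of EGF receptor signalling, by 0.93 (SE 0.16). With IL-4, 2 were higher and 2 lower (1 and 1 in DESeq2), among them Klf9 (0.96, SE 0.23), Per1 (-1.15, SE 0.28) and Dusp1 (-0.86, SE 0.17).

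The NR4A receptors are immediate-early genes, and cyclic AMP response elements (CREs) near their starts are known to take part in their induction. The 3 stretches below are from the RefSeq promoter table (GRCm38, the mm10 assembly) and are shown because Nr4a1 was high at 1 h only and Nr4a3 mainly at 4 h. They are read 5′ to 3′ on the strand of the gene, and the CRE core TGACG, or its reverse complement CGTCA, is in capitals. Each lies before the RefSeq transcription start of the gene, which for Nr4a1 is an internal start within the annotated span, and for Nr4a3 the stretch ends where the annotated exon begins. Nr4a1 is at chr15:101266596-101266845 on the plus strand, Nr4a2 at chr2:57124004-57124253 on the minus strand and Nr4a3 at chr4:48045055-48045152 on the plus strand.
Nr4a1: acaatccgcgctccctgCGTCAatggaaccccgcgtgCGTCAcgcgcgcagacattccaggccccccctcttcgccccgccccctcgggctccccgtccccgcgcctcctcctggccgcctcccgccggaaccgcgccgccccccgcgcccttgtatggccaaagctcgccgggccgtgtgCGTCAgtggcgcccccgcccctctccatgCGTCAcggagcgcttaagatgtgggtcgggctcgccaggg
Nr4a2: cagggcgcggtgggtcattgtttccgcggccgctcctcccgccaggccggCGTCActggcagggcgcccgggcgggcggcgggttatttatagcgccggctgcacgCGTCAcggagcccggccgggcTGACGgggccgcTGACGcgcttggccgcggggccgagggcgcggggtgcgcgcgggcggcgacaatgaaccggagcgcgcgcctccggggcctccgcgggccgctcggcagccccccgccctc
Nr4a3: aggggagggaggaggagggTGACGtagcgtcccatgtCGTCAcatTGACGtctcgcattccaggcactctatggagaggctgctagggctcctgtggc

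The core TGACG was searched on both strands of the 250 bases before the start. Nr4a1, Nr4a2 and Nr4a3 each held 4 matches, and the windows of the other members with an entry (Pparg, Ppard, Nr1h2, Nr1h3, Rxra and Vdr) held 0. Of 32851 mouse promoter windows of that length, 17.8% held at least 1 match and 0.137% held 4 or more. These windows were not matched for GC content, and the core itself holds a CG. The printed stretches had a GC content of 74.4% for Nr4a1, 80% for Nr4a2 and 61.2% for Nr4a3. The full element TGACGTCA, which contains the core, was in none of the 3 windows and in 1.55% of all windows. The fourth match of Nr4a3 lay in the annotated exon and is not shown. A match is a run of letters and not a measured site, and no binding was measured.

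The NR4A transcripts responded at different times. Nr4a1 (Nur77) had 4.83, 5.97 and 4.81 CPM in controls and 77.2, 60.5 and 67.3 CPM at 1 h, a log2 change of 3.67 (SE 0.22, adjusted p = 3.6e-19) or 12.7-fold. At 4 h it had 0.886, 0.777 and 0 CPM, from 2 counts in all. The control level was 9.45 times the 4 h level, with an interval from counting error of 2.39 to 81.7. Nr4a1 fell below control at 4 h by 3.13 (SE 0.69, adjusted p = 0.00012), at 12 h by 2.09 (SE 0.53) and at 24 h by 2.64 (SE 0.54). No sample from 4 to 24 h reached the lowest control.

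Nr4a3 (NOR1) came later. It had no count in controls, 5.04, 4.50 and 7.08 CPM at 1 h, and 57.6, 45.1 and 69.7 CPM at 4 h. The rise from 1 to 4 h was 3.31 on the log2 scale (SE 0.27, adjusted p = 1.2e-14), while Nr4a1 fell by 6.80 over the same step (SE 0.38). Against the limit that 0 counts allow, 3 counts over the 3 controls or 0.538 CPM, Nr4a3 was at least 10.5-fold higher at 1 h and at least 106-fold higher at 4 h. It was back to at most 1.77 CPM at 12 h and at most 1.47 CPM at 24 h. Nr4a2 (NURR1) did not pass the filter, with 2 counts over the controls and 10 at 4 h, where 6 of the 10 were in sample 3. That ratio was 7.67 with a counting interval of 1.64 to 72.0, and without the filter its adjusted p was 0.020.

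With IL-4, Nr4a1 had 1.05, 1.11 and 0.596 CPM, below all 3 controls, and with IL-13 it had 4.60, 1.53 and 1.52 CPM, also below them. Nr4a1 rested on 5 counts in all with IL-4 and 14 with IL-13, against 29 in controls. The control level was 5.60 times the IL-4 level, with an interval from counting error of 2.14 to 18.5. For IL-13 the ratio was 2.11 (1.08 to 4.31). Nr4a1 did not pass the filter in the cytokine comparison. Fitted without the filter, its change was -2.40 with IL-4 (SE 0.63, adjusted p = 0.0031) and -1.05 with IL-13 (SE 0.50, adjusted p = 0.20). This fit was an alternative and not the main test.

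Vdr, the receptor for 1,25-dihydroxyvitamin D, was low throughout and highest at 1 h. Its gene lies at chr15:97854425-97910630 on the minus strand. It had 2.68, 1.63 and 1.07 CPM in controls and 8.95, 5.15 and 5.56 CPM at 1 h, without overlap. Its 35 counts at 1 h against 10 in controls gave a ratio of 3.67 with a counting interval of 1.78 to 8.31. Vdr did not pass the filter. In the fit without the filter, an alternative and not the main test, the change was 1.84 (SE 0.52, adjusted p = 0.0030). The fall from 1 to 4 h was -2.24 in that fit (SE 0.63, adjusted p = 0.0017). At 4, 12 and 24 h its samples overlapped the controls.

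IL-13 and IL-4 share a receptor chain, and few genes of any kind were called between them. None of the 6 tested was called between IL-13 and IL-4, where 0.108% of all genes were (10 of 9252). None of the 6 had an unadjusted p under 0.05, and DESeq2 called none. For Pparg the difference was 0.11 on the log2 scale with a 95% interval of -0.15 to 0.37, for Nr1h3 it was 0.03 (-0.22 to 0.28), for Rxra 0.11 (-0.10 to 0.31), and for Nr3c1 0.01 (-0.22 to 0.24). The widest interval was that of Ppard, from -0.52 to 0.72.

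Between the stimuli at the same time of 12 h, the share of members called was near that of all genes. Against IL-4, IFN-γ-primed LPS gave 3 of 9 members higher and 2 lower, with a background of 41% (21.1% higher, 19.9% lower). Pparg was lower by 6.00 (SE 0.31, adjusted p = 3.2e-28) and Rxra by 1.25 (SE 0.13). Nr1h3 was higher by 2.06 (SE 0.11), Nr3c1 by 1.00 (SE 0.11) and Nr1h2 by 0.37 (SE 0.11, adjusted p = 0.0040). The call of Nr1h2 was lost under library-size scaling (0.02) and without the IL-4 samples 2 or 3 (adjusted p up to 0.031). Against IL-13, 2 of 9 were higher (Nr1h3 and Nr3c1) and 2 lower (Pparg and Rxra), again with a background of 41% (21% higher, 20% lower), and Pparg was lower by 6.12 (SE 0.30).

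RAW264.7 cells differed from control BMDMs in about the share of members that all genes did. Of the 9 members tested between the controls, among them Nr4a3 with no count in either, 6 were lower and 0 higher, where 65.6% of all genes differed (31.9% higher, 33.7% lower). Pparg had no count in any of the 4 RAW264.7 samples, and the BMDM controls were at least 65.7-fold above the limit of 3 counts over the 2 RAW264.7 controls. Rxra had 10.1 and 15.9 CPM, lower by 3.87 (SE 0.18, adjusted p = 4.3e-29), and Nr1h3 had 5.20 and 6.52 CPM, lower by 3.67 (SE 0.22, adjusted p = 3.9e-25). Nr1h2 was lower by 1.12 (SE 0.13) and Nr3c1 by 0.83 (SE 0.13). Ppard was lower by 1.08 (SE 0.33, adjusted p = 0.0027), a call lost with DESeq2, with library-size scaling, and without control BMDM sample 3 or either RAW264.7 control (adjusted p up to 0.025). Among the PPAR targets 12 of 13 were lower, and among the LXR targets 9 of 12. Cd36 had a mean of 1714 CPM in the RAW264.7 controls and 1146 CPM in control BMDMs, while Pparg had no count in the line. The line, the origin of the cells, the mouse strain and the medium differ together between these groups and cannot be told apart. The antisense share of Rn45s reads also differed between the RAW264.7 and BMDM controls. M-CSF is stated for the BMDMs only.

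LPS for 4 h changed 1 of 6 tested members in RAW264.7, where the background was 27.9%. With a log2 change of at least 1 required as well, 0 were called, where the background was 11.1%. Nr3c1 went from 79.8 and 80.1 CPM to 39.4 and 44.7 CPM, a fall by 0.88 (SE 0.14, adjusted p = 1.0e-09). Rxra had 10.1 and 15.9 CPM in controls and 5.18 and 8.66 CPM with LPS, and its change of -0.84 did not pass (adjusted p = 0.018), although it did without RAW264.7 control sample 1 (-1.13, adjusted p = 0.0047) and under library-size scaling (-1.02, adjusted p = 0.0033). Nr4a1 had 2.78 and 3.62 CPM in controls and 3.58 and 10.1 CPM with LPS. Its change of 1.17 (adjusted p = 0.016) lay between 0.21 without LPS sample 2 and 1.69 without LPS sample 1. Abca1 rose from 0.528 to 12.8 ± 3.46 CPM (log2 4.53, SE 0.53), and Tgm2 from 6.91 to 59.0 ± 6.27 CPM (log2 3.13, SE 0.21).

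The changes at 4 h differed between RAW264.7 and BMDMs for 5 members, where 25% of all genes differed. The fit held 9 members, but Pparg and Nr4a3 had no count in RAW264.7 and so no change there to compare, which leaves 7. The stimulus was LPS alone in RAW264.7 and IFN-γ with LPS in BMDMs, so that cell and stimulus cannot be told apart. Nr1h3 differed by 1.05 and did not pass (adjusted p = 0.016), although it did under library-size scaling (1.50). Nr3c1 fell in the line and rose in BMDMs, and the difference was -2.21 on the log2 scale (SE 0.19, adjusted p = 1.1e-16). Rxra differed by 2.29 (SE 0.39, adjusted p = 2.4e-06) and Nr4a1 by 4.22 (SE 0.87, adjusted p = 5.6e-05). Ppard differed by 2.53 (SE 0.64, adjusted p = 0.00095), a call lost without RAW264.7 LPS sample 1 (adjusted p = 0.020). Nr1h2 differed by -0.67 (SE 0.19, adjusted p = 0.0033), a call lost under library-size scaling (-0.22) and without RAW264.7 control sample 2 or LPS sample 2 (adjusted p up to 0.10).

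**Figure D4:**
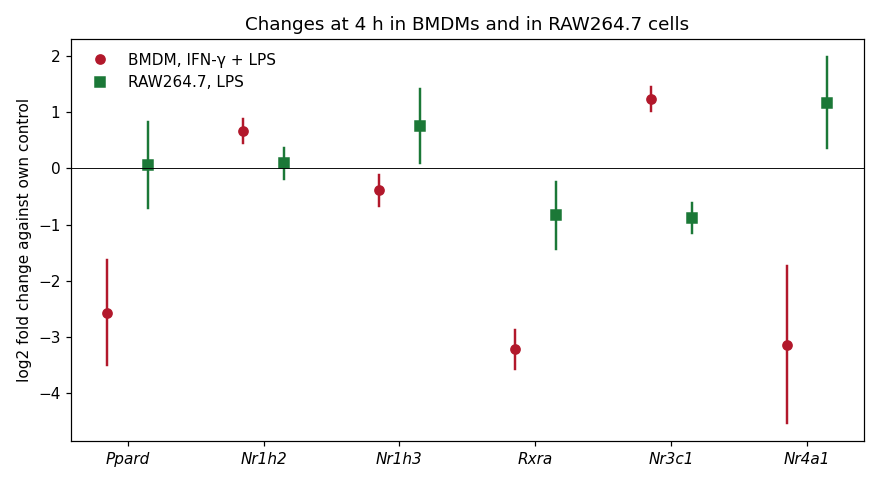
Log2 fold change at 4 h against the own control for 6 members, in BMDMs given IFN-γ with LPS (red circles) and RAW264.7 cells given LPS (green squares), with 95% confidence intervals. Nr3c1 rose by 1.23 in BMDMs and fell by 0.88 in RAW264.7, and Rxra fell by 3.22 in BMDMs.

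Among the other 39 nuclear receptors, 11 could be tested in the time course. At 1 h 1 was higher and 3 lower, at 4 h 1 and 7, at 12 h 1 and 5, and at 24 h 2 and 6, where 11.3%, 25.6%, 23.4% and 21.3% of all genes were lower. DESeq2 gave 1 higher and 4 lower at 24 h. The median at 4 h was -1.39, beside -0.07 over all genes. Rora had 38.0 ± 3.75 CPM in controls and fell by 2.46 at 4 h (SE 0.26), Nr2f6 by 1.69 (SE 0.23), and Thra, a thyroid hormone receptor, by 1.61 (SE 0.42). With IL-4 the circadian repressor Nr1d2 fell by 0.51 (SE 0.13, adjusted p = 0.0054) and with IL-13 Rora fell by 0.63 (SE 0.18, adjusted p = 0.0079). DESeq2 called neither. In RAW264.7 with LPS, Nr1d2 fell by 1.49 (SE 0.21) and Nr2c2 by 0.64 (SE 0.13).

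The genes whose levels followed a member most closely were found by Pearson's r over the 9 group means of log2 CPM, among about 8030 genes. The 9 means share their libraries with the members, and RAW264.7 and BMDMs weigh strongly in them, so r is a description. For Nr1h3 the closest was Acp2 (r = 0.995), a lysosomal phosphatase whose gene is the neighbour of Nr1h3 on the opposite strand, followed by Tmem134 and Ppfibp2. For Rxra they were Tpra1 (0.998), Arl11 and Mob3a. For Nr3c1 they were Stard5 (0.987), Coro2a and Asb13, and for Nr1h2 Bri3 (0.994), Slamf7 and Stau1. These named genes rested on a prior count of 2 in the log2 CPM. With 0.5, all 3 were again named for Rxra and Nr3c1, 2 of 3 for Nr1h2, Nr1h3, Nr4a1 and Vdr, 1 for Ppard, and none for Pparg and Nr4a3. For Nr4a1 the best were Kansl1l (0.922), Egr1, itself an immediate-early gene, and Tpp2. With a prior count of 0.5, Sh2b2 was named in place of Egr1. For Pparg they were Pcyt1a (0.992), Lrp6 and Myo5a, for Nr4a3 Sbds (0.983), Chd1 and Wac, for Ppard Mbd5 (0.973) and Synrg, and for Vdr Extl3 (0.910), C1galt1 and Errfi1.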

How the data were processed

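Ribosomal RNA-depleted, directional libraries were sequenced on a HiSeq2000. Per the study's methods and the submitters' processing notes, the authors used CASAVA 1.8.2, Trimmomatic 0.33 and STAR 2.5.1 with mm10. The annotation release is not given in the sources used here. The deposited files hold raw counts per gene symbol, and the sense-strand column was used. Rows that name no gene and Rn45s were left out of library sizes. Reads on no sense feature made up 62.7% to 69.1% of the sum of assigned, ambiguous and no-feature reads. The precision is limited by 1502618 to 2532496 remaining counts per sample, and counting intervals and floors cover counting error only.

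Counts were tested with edgeR 4.0.16 in R 4.3.3 (TMM, filterByExpr by group, robust quasi-likelihood fit, Benjamini-Hochberg adjustment, call at 0.01). The fits covered the BMDM time course (9568 genes), control with IL-4 and IL-13 (9252), RAW264.7 (9406), and all 25 samples (10612) for comparisons across them. SEs are the log2 fold change divided by the root of F. The code was tested on simulated data. DESeq2 1.42.0, no filter, Rn45s kept, unstranded counts, a size cutoff, a replicate block, other sample sets and leaving out each sample were alternatives. Library-size scaling was added after the data were seen.

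All 10 members were described. From each list, up to 3 called genes with the largest change and at least 5 CPM were named for 4 h, IL-4, IL-13 and RAW264.7, and the values of those genes in other groups were used too. For likeness, 3 genes per member were chosen. A few genes that these rules chose are not reported here. The members and lists were chosen with earlier results of these data known. BMDM samples given LPS alone were not analysed here. Promoter sequences are from RefSeq, and Nr3c1 has none printed. Figures were drawn with matplotlib 3.10.9.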

Additional observations from a re-analysis of the deposited data

Results flagged for a closer look

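For 5 of the 9 members fitted, the change at 4 h differed between RAW264.7 cells given LPS and BMDMs given IFN-γ with LPS. Of all genes 25% differed, by the test of the difference in edgeR's quasi-likelihood fit. Pparg and Nr4a3 had no count in RAW264.7 and so no change there to compare. On the log2 scale, RAW264.7 minus BMDM, the difference was 2.53 for Ppard (adjusted p = 0.00095), -0.67 for Nr1h2 (adjusted p = 0.0033), 2.29 for Rxra (adjusted p = 2.4e-06), -2.21 for Nr3c1 (adjusted p = 1.1e-16) and 4.22 for Nr4a1 (adjusted p = 5.6e-05). Cell type and stimulus cannot be told apart here. Over the fits that left out 1 sample each, 4 to 5 members were called. Ppard and Nr1h2 each lost their call in at least 1 of these fits, and Nr1h2 also under library-size scaling.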

How the results depend on the processing

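No member changed direction past the threshold under any alternative. Requiring a log2 change of at least 1 as well, which is stricter by construction, left 0 members called from 12 to 24 h, with IL-4, and in RAW264.7. Without the filter, and with all 25 samples in the fit, 2 members were called with IL-4 (Pparg and Nr4a1), since Nr4a1 was then tested. Library-size scaling gave 2 calls in RAW264.7 (Nr3c1 and Rxra). Leaving out each sample in turn gave 3 to 5 members called after 1 h of IFN-γ-primed LPS, 7 to 8 after 4 h, 5 to 6 after 12 h and 4 to 5 after 24 h, then 7 to 8 from 1 to 4 h, 3 to 6 from 4 to 12 h (3 without the 12 h sample 2), 2 from 12 to 24 h, 1 with IL-4, 1 with IL-13, 0 between them, 1 to 2 in RAW264.7 (2 without control sample 1 or LPS sample 1), 4 to 5 and 4 for 12 h against IL-4 and IL-13, 5 to 6 between the controls, and 4 to 5 for the difference between the 4 h changes. DESeq2 lost 4 calls of single members among 113 values, and library-size scaling lost 7 and added 5. For the difference between the 4 h changes DESeq2 gave 3 members higher and 3 lower, against 3 and 2 in the main test. The added call lies outside the 113 values. The causes were not tested.

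Whether the replicate numbers of the labels pair the samples cannot be told from the counts. In the time course the deviations of same-numbered samples correlated at a mean of 0.0201 over 30 pairs, from -0.0524 to 0.154. The mean for differently numbered samples was -0.0101. These small values come from all genes tested and are largely noise between samples. With the replicate number as a block, 5 members in place of 4 were called at 1 h, where Rxra passed at -0.37. Of 113 values 110 kept their side of the threshold and 3 gained a call.

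Depth limits Nr4a2, Vdr and, from 4 h of IFN-γ-primed LPS on, Pparg and Nr4a1, which rest on 0 to 16 counts a sample. Ppard at 4 h of IFN-γ-primed LPS rests on 2 to 3 counts a sample, and Nr4a3 outside 1 and 4 h on 0 to 3. Nr4a1 rests on 1 to 2 counts a sample with IL-4 and on 3 to 8 with IL-13.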
